A study of Mus musculus with 3 samples.

Results

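The genes described here are 9 members of the Notch signalling pathway: the receptors Notch1, Notch2 and Notch4, the ligands Dll1, Dll4 and Jag1, the DNA-binding factor Rbpj, and the target genes Hes1 and Hey1. They were chosen by gene symbol, and each matched exactly 1 of the 31053 gene rows of the deposited matrix. The matrix holds droplet single-cell transcriptomes of flow-sorted non-parenchymal liver cells from Ai14 mice (LSL-Tomato, a strain that makes a red fluorescent protein after Cre recombination). Each of the 3 libraries stands for 1 treatment, namely PBS, 20a-LNP or 20mix-LNP, with cells collected 3 h after the injection. Both lipid nanoparticles (LNPs) carried Cre mRNA at 0.3 mg/kg and, as known of the study, differ in the stereochemistry of a hydroxycholesterol in the particle. Nothing read here states how many mice each library came from, their age or sex, or which populations were sorted. Barcodes carry the suffix 1, 2 or 3, and no source used here ties a suffix to a treatment. Values are therefore given for the 3 libraries pooled and under each suffix, and no effect of a treatment is reported.

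Notch receptors are single-pass membrane proteins that bind ligands of the Delta-like and Jagged families on a neighbouring cell. Binding leads to 2 successive cuts, by an ADAM protease and by gamma-secretase, which free the intracellular domain to enter the nucleus. There it joins Rbpj and a Mastermind-like coactivator and switches on genes such as those of the Hes and Hey repressors. In liver endothelium the pathway is known for arterial identity and for holding sinusoidal cells in their specialised state, and in blood cells for the fate of T cells, dendritic cells and nonclassical monocytes.

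The matrix holds 24111183 unique molecular identifiers (UMIs, 1 per captured mRNA molecule) in 4638 barcodes, with 6144949, 8754827 and 9211407 UMIs under suffixes 1, 2 and 3. After filters, 3207 cells remained (755, 1110 and 1342), with medians of 5947, 5598.5 and 5607.5 UMIs. In 3 cases, kept cells of different libraries carried the same barcode sequence. Cells were assigned to classes by gates on raw UMIs of lineage markers, none of them a member: 2162 cells passed 1 gate and 1045 (32.6%) passed no gate clearly. The ungated share differed between libraries, at 25.3%, 39.9% and 30.6%. In all, 9 gates held at least 50 cells: sinusoidal endothelial (810), NK or ILC1 (363), plasmacytoid dendritic (353), Kupffer (194), nonclassical monocyte (116), conventional dendritic 1 (cDC1, 67), conventional dendritic 2 (cDC2, 62), neutrophil (61) and T (61). The names were checked against genes that played no part in the gates, chosen after the gates were set: in 20 of 27 checks the gene was highest in the gate it is known for, and in 7 it ranked second. The 7 were Csf1r and Nr4a1 for nonclassical monocytes, Irf7 for plasmacytoid dendritic cells, Irf8 and Cadm1 for cDC1, and Itgax and H2-Ab1 for cDC2. Of the genes highest in their gate, Kdr reached 2994 and Cdh5 909 UMIs per 1000000 in the sinusoidal endothelial gate, C1qa 5725 in the Kupffer gate, and Tcf4 2413 in the plasmacytoid dendritic gate.

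Levels are UMIs of the gene per 1000000 UMIs of the gate, or counts per 1000000 (CPM), with exact Poisson 95% intervals in square brackets. The intervals cover counting error only and hold no variation between animals. There are no replicates, so no test was run and no p-value is given. The kit counts 1 tag at the 3′ end of each molecule, so levels of 1 gene are compared between gates, and levels of different genes are not ranked.

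The 2 members found mainly in endothelium, Dll4 and Notch4, are shown first by the sequence just before their start, since both were low or at 0 in most other gates. The windows come from RefSeq (GRCm38.p6), plus strand, 5′ to 3′. Dll4 lies at chr2:119325784-119335962 and its window at chr2:119325534-119325783, ending 1 base before the gene. Notch4 lies at chr17:34564268-34588503 and its window is printed over chr17:34564045-34564267, again up to the first base of the GENCODE gene. Capitals mark AGGAAG on either strand (CTTCCT when read on the plus strand), a form of the core bound by ETS factors such as those of endothelial cells.
Dll4: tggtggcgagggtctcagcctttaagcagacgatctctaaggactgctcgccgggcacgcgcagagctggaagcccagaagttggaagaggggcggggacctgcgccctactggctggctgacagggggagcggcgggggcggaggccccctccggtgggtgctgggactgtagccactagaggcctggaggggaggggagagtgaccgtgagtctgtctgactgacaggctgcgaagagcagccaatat
Notch4: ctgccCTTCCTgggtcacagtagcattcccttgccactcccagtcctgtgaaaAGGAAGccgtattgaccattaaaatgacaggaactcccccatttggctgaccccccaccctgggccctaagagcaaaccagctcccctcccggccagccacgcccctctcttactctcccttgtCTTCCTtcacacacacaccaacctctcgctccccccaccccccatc
Notch4 held 3 such matches, starting 245, 197 and 73 bases before its RefSeq start, and Dll4 held none of the letters AGGAAG or CGGAAG. Of all 32851 RefSeq windows of 250 bases, 39.2% held at least 1 of these forms. TGGGAA, the core bound by Rbpj itself, stood in 21.6% of all windows and in neither of these. Among the 7 members with a window (9 windows), TGGGAA was found in those of Rbpj only. CGGAAG stood before Notch2 (50 bases upstream), and AGGAAG in 1 Dll1 window (14 bases before its RefSeq start) beside Notch4. That Dll1 window and both Rbpj windows lie inside the GENCODE genes, before RefSeq starts further along them. The other Dll1 window lies before the GENCODE start and held none of these letters. Hes1 and Hey1 had no window. These matches describe letters only, and other forms of the ETS core, such as TGGAAG in the Dll4 window, were not searched.

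**Figure D1:**
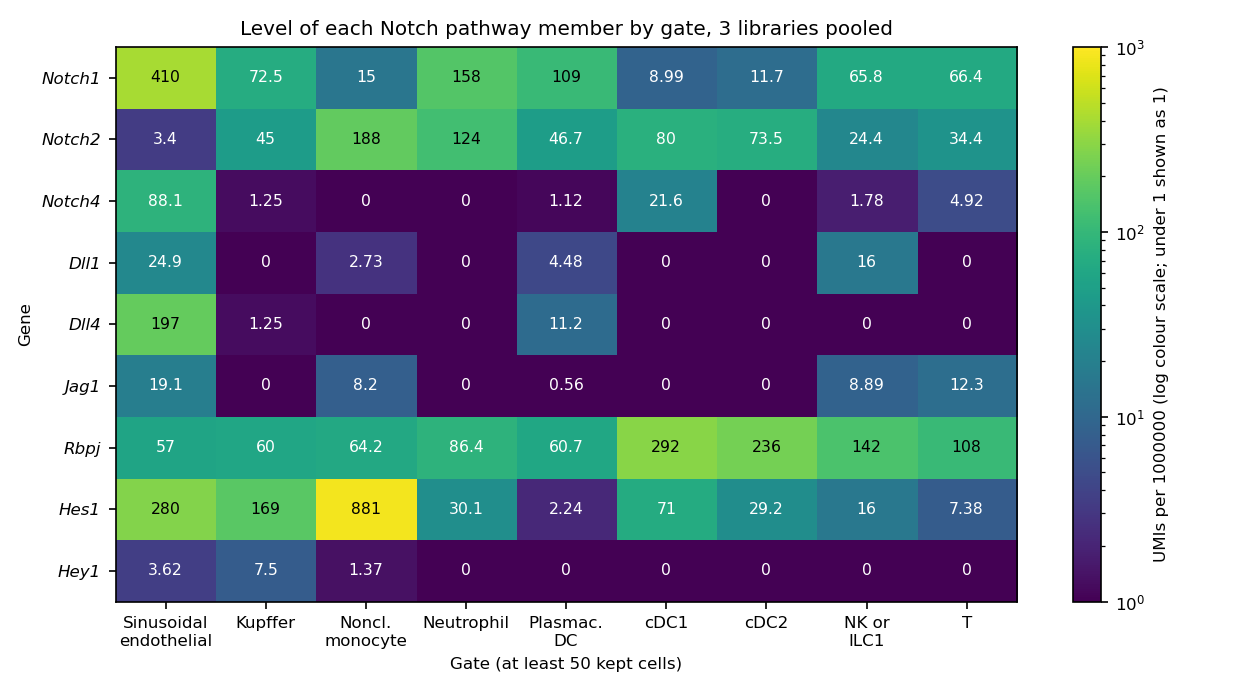
Level of each of the 9 genes (rows) in the 9 gates with at least 50 cells (columns), as UMIs per 1000000 with the 3 libraries pooled; colour is on a log scale and 0 means that no UMI was counted. Notch1, Notch4, Dll1, Dll4 and Jag1 have their highest value in the sinusoidal endothelial gate, Notch2 and Hes1 in nonclassical monocytes, Rbpj in cDC1 and Hey1 in Kupffer cells, where it rests on 6 UMIs.

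Among the receptors, Notch1 and Notch4 were highest in sinusoidal endothelium, of the gates with at least 50 cells. Notch1 (chr2:26457903-26516663, minus strand) was at 409.5 CPM [391 to 428] there, with 381, 350.4 and 439 under suffixes 1, 2 and 3, and 75.3% of cells had at least 1 of its UMIs. Neutrophils followed at 158 CPM [114 to 213] and plasmacytoid dendritic cells at 109 [98.0 to 120]. Kupffer cells (72.5), T cells (66.4) and NK or ILC1 cells (65.8) came next, and neighbours among these 3 did not differ beyond counting error. Nonclassical monocytes (15.0), cDC2 (11.7) and cDC1 (8.99) stood at the bottom, again without separation. In each of the 5 gates with at least 20 cells in every library, the libraries kept to this order of magnitude: plasmacytoid dendritic cells had 101, 118 and 104 CPM, and nonclassical monocytes 14.6, 13.3 and 17.8. The sinusoidal value of Notch1 exceeded that of the other gates with at least 50 cells in all 3 libraries. The vascular endothelial gate, of only 16 cells, had more, at 585, 511 and 789.8 CPM by library.

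Notch2 was led by myeloid cells and was lowest in sinusoidal endothelium. Notch2 (chr3:98013527-98150361), the receptor on which marginal zone B cells and some dendritic and monocyte subsets are known to depend, was highest in nonclassical monocytes at 188 CPM [158 to 223]. The libraries gave 233, 149 and 200 CPM there, and 65.5% of these cells had a UMI. Neutrophils had 124 CPM, cDC1 80.0, cDC2 73.5, plasmacytoid dendritic cells 46.7, Kupffer cells 45.0, T cells 34.4 and NK or ILC1 cells 24.4. Sinusoidal endothelial cells had 3.40 CPM [1.95 to 5.53], from 16 UMIs in 810 cells, with 2.47, 4.0 and 3.66 by library. Each library thus placed this gate below the plasmacytoid dendritic, Kupffer, nonclassical monocyte and NK or ILC1 gates. Nonclassical monocytes exceeded sinusoidal endothelium in Notch2 by 55.4 times [32.9 to 99.6] and Kupffer cells by 4.19 times [2.89 to 6.23]. With cells thinned to 1000 UMIs, which left 1 sinusoidal UMI, the first ratio was 148.

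Notch4, a receptor known from endothelium, was at 88.1 CPM [79.8 to 97.0] in the sinusoidal gate, with 92.1, 101 and 82.7 by library. A second, lower level was found in cDC1, at 21.6 CPM [13.8 to 32.1] from 24 UMIs, and in each library (32.0, 21.7 and 14.7 CPM in 13, 34 and 20 cells). Of cDC1 cells 22.4% had a Notch4 UMI, at a median of 17575 UMIs per cell. No cDC2 cell had one, at a similar median of 14538.5. Thinned to 1000 UMIs per cell, the cDC1 share was 2.99% [0.364 to 10.4], close to the level of single UMIs. The 5 sinusoidal endothelial markers summed to 9.89 CPM in cDC1 against 8131 CPM in their own gate, a gap that the gate rule sets in part. Their part in the cDC1 value of Notch4 was not tested. All other gates had at most 4 Notch4 UMIs.

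**Figure D2:**
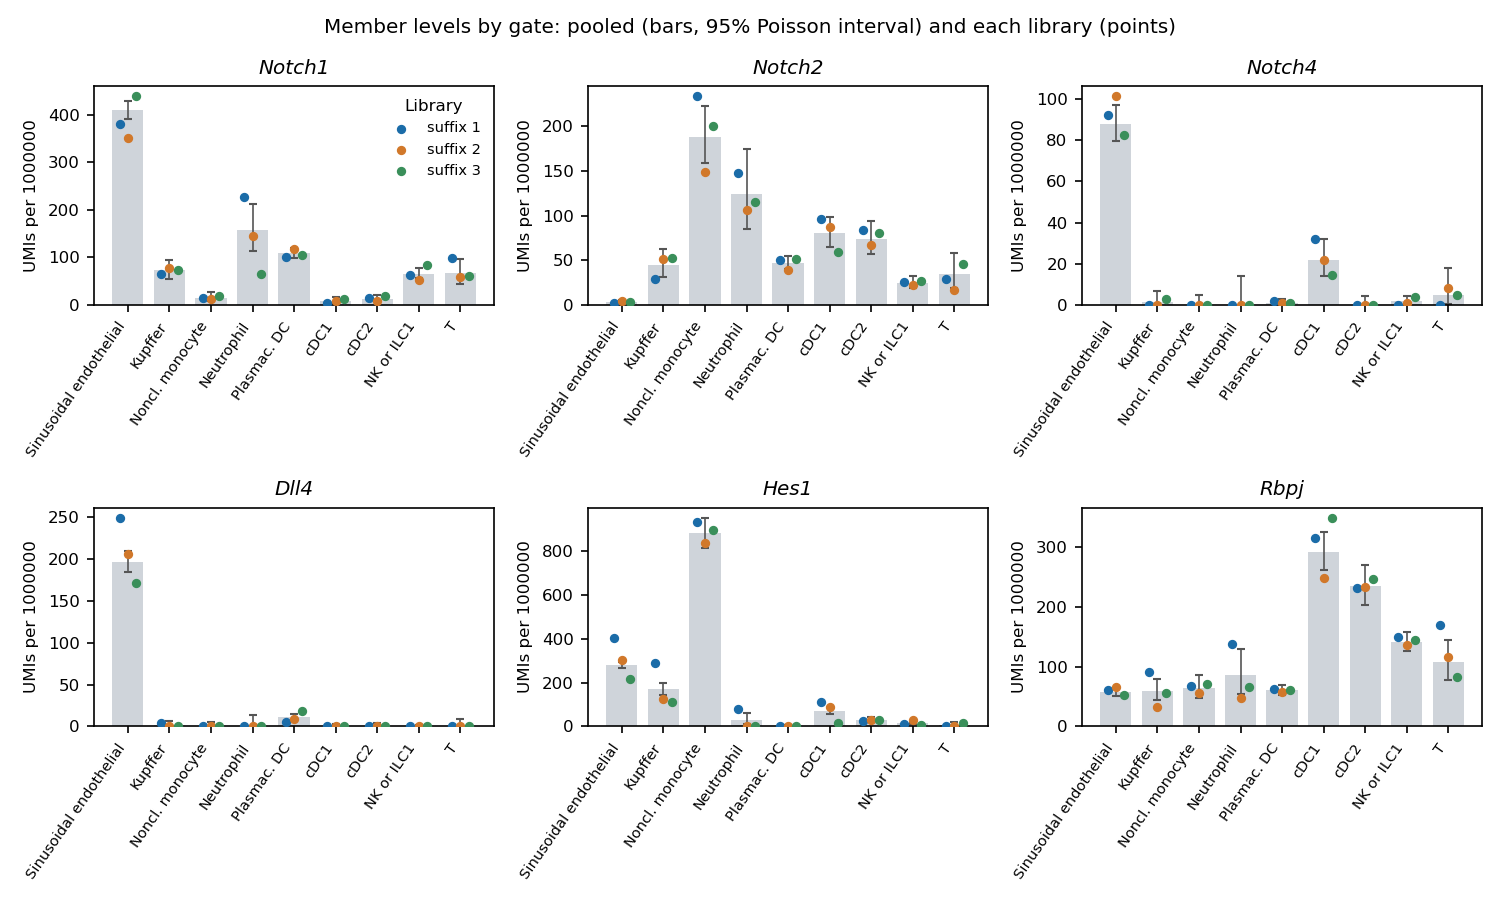
Levels of 6 genes by gate, in UMIs per 1000000 on linear axes from 0; bars are the 3 libraries pooled with the 95% Poisson interval, and points are the libraries under suffixes 1, 2 and 3. The 3 points of Notch1, Notch4 and Dll4 in the sinusoidal gate, and of Notch2 and Hes1 in nonclassical monocytes, lie above every point of the other gates with at least 20 cells in each library.

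Of the ligands, Dll4 was the one most restricted to a class. Dll4, the ligand known for restraining sprouting in endothelium, was at 197 CPM [185 to 210] in sinusoidal endothelial cells, with 249, 207 and 171 by library, and 51.1% of them had a UMI. No Dll4 UMI was counted in NK or ILC1, T, cDC1, cDC2, neutrophil or nonclassical monocyte gates. For the 363 NK or ILC1 cells, 3 counts of the gate's total would make 1.33 CPM, and the exact upper limit was 1.64. Kupffer cells had 1 UMI. Plasmacytoid dendritic cells were the exception among blood cells, at 11.2 CPM [7.99 to 15.2] from 40 UMIs, with 5.78, 8.46 and 18.6 by library. A Dll4 UMI was seen in 7.37% of plasmacytoid dendritic cells, at a median of 11322 UMIs, and in 0% of NK or ILC1 cells, at 6382. Thinned to 1000 UMIs per cell, the plasmacytoid share was 1.42% [0.461 to 3.27]. Sinusoidal endothelial markers summed to 29.7 CPM in the plasmacytoid gate and to 16.9 CPM in the NK or ILC1 gate, and their part in the plasmacytoid value was not tested.

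Dll1 and Jag1 were sparse. Dll1 (chr17:15367354-15376872, minus strand), the ligand that supports Notch2-dependent cell fates, was at 24.9 CPM [20.6 to 29.8] in sinusoidal endothelium, with 27.2, 17.3 and 26.0 by library. NK or ILC1 cells followed at 16.0 CPM [11.2 to 22.2], with 21.9, 12.5 and 16.3. Plasmacytoid dendritic cells had 4.48 CPM and nonclassical monocytes 2.73 CPM, from 2 UMIs. No Dll1 UMI was counted in the Kupffer, T, cDC1, cDC2 and neutrophil gates. Jag1 (chr2:137081456-137116644, minus strand), the Jagged ligand of bile duct and artery development, was at 19.1 CPM [15.4 to 23.5] in sinusoidal endothelium, where suffix 2 was lowest (23.9, 9.33 and 19.8). T cells (12.3), NK or ILC1 cells (8.89) and nonclassical monocytes (8.20) did not differ from the neighbour above them beyond counting error. Outside the rule of 50 cells, and chosen after its values were seen, the vascular endothelial gate had 292 CPM of Jag1 [194 to 422] in 16 cells. Markers of that gate summed to 339 CPM in sinusoidal endothelium, with 1 of 8 at 0, and their part in the Jag1 level was not tested.

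Rbpj, the factor through which all Notch receptors reach DNA, was found in every gate and was highest in conventional dendritic cells. Rbpj (chr5:53466152-53657362) was at 292 CPM [261 to 326] in cDC1, with 315, 248 and 349 by library, and at 236 CPM [204 to 271] in cDC2, with 233, 233 and 246. NK or ILC1 cells had 142 CPM (149, 136 and 145). T cells (108), neutrophils (86.4), nonclassical monocytes (64.2), plasmacytoid dendritic cells (60.7), Kupffer cells (60.0) and sinusoidal endothelial cells (57.0) followed, and no neighbouring pair from NK or ILC1 cells downwards differed beyond counting error. Cells with a UMI made up 97.0% of cDC1 and 25.1% of sinusoidal endothelial cells. At 1000 UMIs per cell these shares were 28.4% [18.01 to 40.7] and 5.17% [3.72 to 6.98], with 37 shallower sinusoidal cells left out. Sinusoidal endothelium, with the most Notch1 among these gates, thus stood at the lower end for Rbpj. The annotation lists the pseudogenes Rbpj-ps1 and Rbpj-ps3, which could share reads with Rbpj, so its level is uncertain to that extent.

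Hes1, a transcriptional repressor and the best known Notch target, was highest in nonclassical monocytes. Hes1 (chr16:30064384-30067796) was at 881 CPM [814 to 952] there, with 933, 835 and 895 by library, and 78.4% of these cells had a UMI. Sinusoidal endothelial cells had 280.4 CPM [265 to 296], with 405, 304 and 219 by library. Kupffer cells had 169 CPM [141 to 199.6], with 289, 125 and 111, so that suffix 1 was highest in both of these gates. cDC1 had 71.0 CPM, neutrophils 30.1, cDC2 29.2, NK or ILC1 cells 16.0, T cells 7.38 and plasmacytoid dendritic cells 2.24, from 8 UMIs in 353 cells. Nonclassical monocytes exceeded sinusoidal endothelium by 3.14 times [2.86 to 3.45] and Kupffer cells by 5.22 times [4.33 to 6.34], in all 3 libraries. By library the first ratio was 2.31, 2.75 and 4.09 and the second 3.23, 6.69 and 8.05. In 7 and 6 of 16 settings, respectively, they left these counting intervals. The first ran from 2.39 without suffix 3 to 3.63 without suffix 1. The second ran from 3.88 with a stricter cell filter to 9.05 with cells weighted equally. Immediate early genes, which tissue digestion can switch on, moved with this order in part: 13 such genes summed to 4984 CPM in nonclassical monocytes, 1262 in Kupffer cells and 853 in sinusoidal endothelium. They summed to 31647 CPM in neutrophils and 3285 in plasmacytoid dendritic cells, which had little Hes1. Their part in the Hes1 level was not tested. In sinusoidal endothelium the same sum was 908, 826 and 836 CPM by library.

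Hey1 (chr3:8663359-8667256, minus strand), a transcriptional repressor that is part of the arterial program, was close to the limit of detection. It was at 7.5 CPM [2.75 to 16.3] in Kupffer cells from 6 UMIs, at 3.62 CPM [2.11 to 5.79] in sinusoidal endothelium from 17 UMIs, and at 1 UMI in nonclassical monocytes. The other 6 gates had none. The Kupffer and sinusoidal values did not differ beyond counting error (ratio of sinusoidal to Kupffer 0.482 [0.182 to 1.49]).

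The sinusoidal endothelial gate was then set against the 3 other gates with the most cells: Kupffer, NK or ILC1 and plasmacytoid dendritic. A gene was called when the pooled ratio was at least 2, its interval did not hold 1 and all 3 libraries had the same direction. Against Kupffer cells, 5 of the 9 members were higher in sinusoidal endothelium and 1 was lower, where 27.8% and 11.9% of all 11262 genes read were called. The ratio was 5.65 [4.35 to 7.47] for Notch1, 70.5 [12.6 to 2791] for Notch4 and 158 [28.2 to 6235] for Dll4, the last 2 against single Kupffer UMIs. Dll1 was 6.64-fold and Jag1 5.11-fold higher by bounds, with no Kupffer UMI, taking 3 counts over the Kupffer gate as the floor. The exact lower limits were 5.32 and 4.07. Notch2 was the member lower in endothelium, by 13.2 times [7.15 to 25.5]. Thinning every cell to 1000 UMIs ended the calls of Dll1 and Jag1, whose bounds came to 1.23 and 0.749, and moved the ratio to 12.5 for Notch4, 29.4 for Dll4 and 0.0204 for Notch2, the last from 1 sinusoidal UMI. Leaving out suffix 3 gave 14.6 for Notch4, and bounds of 3.58 for Dll1 and 2.80 for Jag1, and leaving out suffix 1 gave 33.2 for Dll4 and 3.26 for Jag1. Hes1 differed by 1.66 times [1.39 to 2.0] and Rbpj by 0.951 times, and neither was called. The Hes1 ratio passed 2 with equal weight per cell (2.50), with thinned cells (2.01) and without suffix 1 (2.03).

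**Figure D3:**
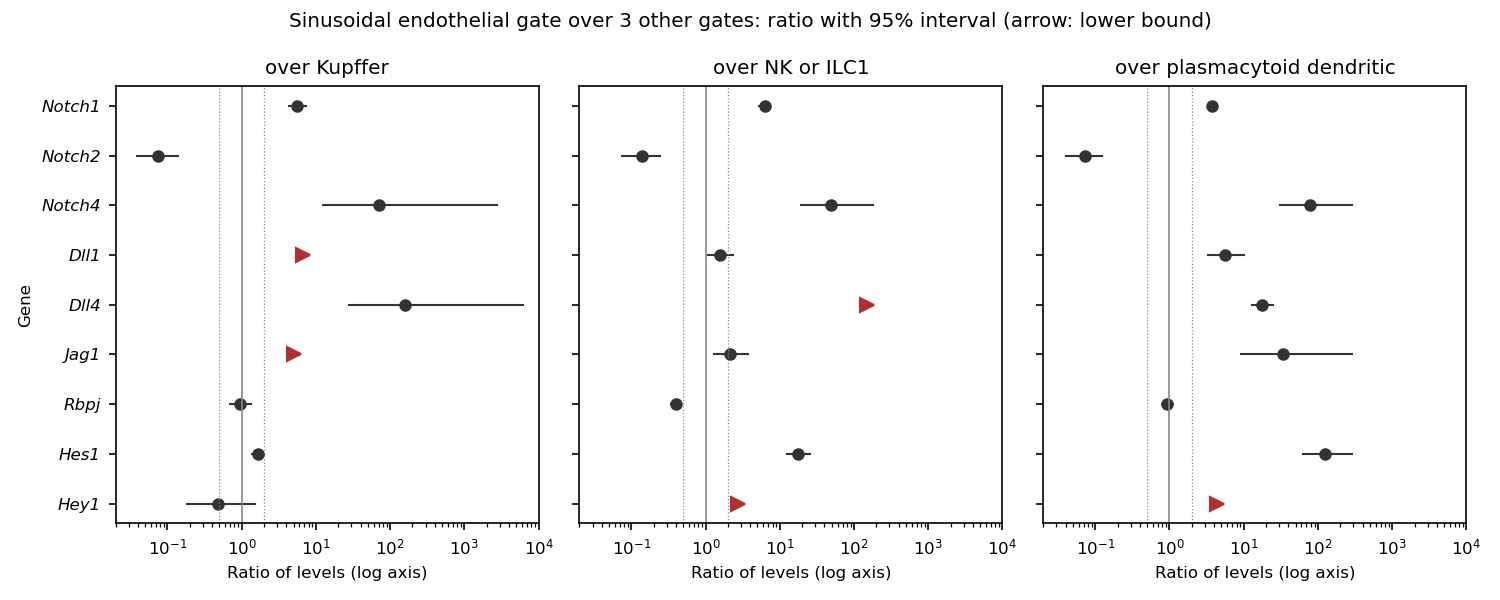
Ratio of the level in the sinusoidal endothelial gate to that in Kupffer, NK or ILC1 and plasmacytoid dendritic gates (log axis). Lines are exact 95% intervals. Arrows, where the other gate had no UMI, are ratios with 3 counts put in for that gate and are not exact limits. Dotted lines mark 2-fold either way. Notch2 lies left of the dotted line in all 3 panels, and Notch1, Notch4 and Dll4 lie right of it.

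Against NK or ILC1 cells, 6 members were higher in sinusoidal endothelium and 2 lower, beside 28.6% and 19.4% of 11785 genes. Notch4 was 49.5-fold [19.2 to 183], Hes1 17.5-fold [12.6 to 25.1] and Notch1 6.23-fold [5.26 to 7.41] higher. Dll4 was 148-fold higher by its bound, with an exact lower limit of 120. Without suffix 2 the Hes1 ratio was 39.5 and the bound for Dll4 83.7, and without suffix 3 the Notch4 ratio was 145. With thinned cells the bound for Dll4 was 22.5, and the ratio was 9.52 for Notch4 and 0.0520 for Notch2. Jag1 was 2.15-fold [1.32 to 3.69] higher, a call that ended without suffix 1 (1.98) and turned when cells were thinned (0.859) or weighted equally (0.988). Hey1 was 2.71-fold higher by its bound, with an exact lower limit of 1.98, a call that ended without any 1 of the libraries. Notch2 was 7.18-fold [4.06 to 13.4] and Rbpj 2.49-fold [2.11 to 2.95] higher in NK or ILC1 cells. Dll1 differed by 1.56 times [1.06 to 2.33] and was not called.

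Against plasmacytoid dendritic cells, 7 members were higher in sinusoidal endothelium and 1 lower, beside 31.7% and 20.6% of 11993 genes. Hes1 showed a ratio of 125 [63.4 to 291], with 140.2, 132 and 135 by library. Notch4 was 78.7-fold, Jag1 34.2-fold, Dll4 17.6-fold, Dll1 5.56-fold and Notch1 3.77-fold higher. Hey1 was 4.31-fold higher by its bound, with an exact lower limit of 3.14. Thinning left 4 of the 7 calls (Notch1, Notch4, Dll4 and Hes1), with Hes1 at 47.3, Notch4 at 9.29 and Notch2 at 0.0285. Without suffix 3 the Dll4 ratio was 32.1 and the call of Hey1 ended, and without suffix 1 the Jag1 ratio was 22.2 and the bound for Hey1 2.43. Notch2 was 13.7-fold [8.21 to 24.6] higher in plasmacytoid cells. The median log2 ratio of the members was 2.35, 1.44 and 2.48 over Kupffer, NK or ILC1 and plasmacytoid dendritic cells, beside 0.43, 0.23 and 0.33 over all genes read. Of these, the medians over Kupffer and over NK or ILC1 cells are themselves bounds set by the floor of 3 counts, those of Jag1 and Hey1. The 3 comparisons share the sinusoidal cells.

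Within the sinusoidal gate, cells were divided by markers of position along the lobule into pericentral (162) and periportal (388). The remaining 260, named between, had too few marker UMIs or no clear excess of either set, so they are not a measured middle position. They were also shallower, at a median of 3731.5 UMIs against 6230.5 in pericentral and 6371.5 in periportal cells. The ligand Dll4 and the target Hes1 were highest at the periportal end. Dll4 was at 281 CPM [261 to 303] in periportal cells, with 318, 309 and 251 by library. It was at 139 CPM in the cells between and at 49.7 CPM [36.7 to 65.9] in pericentral cells, with 67.5, 30.5 and 49.6. Every library thus placed periportal above pericentral cells, by 5.66 times pooled [4.22 to 7.75]. Hes1 was at 369 CPM [346 to 394] in periportal cells, with 487, 425 and 282. It was at 227 CPM between and at 116 CPM [95.5 to 140] in pericentral cells, with 216, 61.1 and 105. The periportal excess of Hes1 was 3.18 times [2.61 to 3.91], and the 3 libraries did not overlap between the ends. Hey1 was seen in periportal cells alone, at 6.75 CPM from 17 UMIs. The bound on its pericentral to periportal ratio was 0.461, with an exact upper limit of 0.633. The call on this bound ended without any 1 of the libraries.

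Dll1 ran the other way. It was at 45.6 CPM [33.1 to 61.2] in pericentral cells, with 60.7, 38.2 and 43.7 by library, and at 16.3 CPM [11.7 to 22.1] in periportal cells, with 17.97, 14.2 and 16.0. The pericentral excess was 2.80 times [1.79 to 4.40]. At 1000 UMIs per cell the ratio was 2.11 and the call ended. Notch1 differed by 0.934 times [0.830 to 1.05] from pericentral to periportal, Notch4 by 0.836 times [0.635 to 1.09], Rbpj by 0.915 times [0.658 to 1.26] and Jag1 by 0.584 times [0.310 to 1.03], and none was called. Of the 9 members, 1 was thus called pericentral and 3 periportal, where 2.11% and 2.0% of 10324 genes were. The pericentral gate held 24, 19 and 119 cells by library, and the 19 under suffix 2 were 1 short of the minimum of 20 set for a library. Efnb2, 1 of the 5 periportal markers, is itself known as a Notch-responsive gene. With Efnb2 left out of the markers, an alternative added after seeing the data, the pericentral to periportal ratios were 0.174 for Dll4, 0.310 for Hes1 and 2.85 for Dll1, and the same 4 members were called. Immediate early genes summed to 968 CPM in periportal and 680 CPM in pericentral cells, and hepatocyte transcripts to 263 and 145 CPM. Their part in the zonal differences was not tested.

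**Figure D4:**
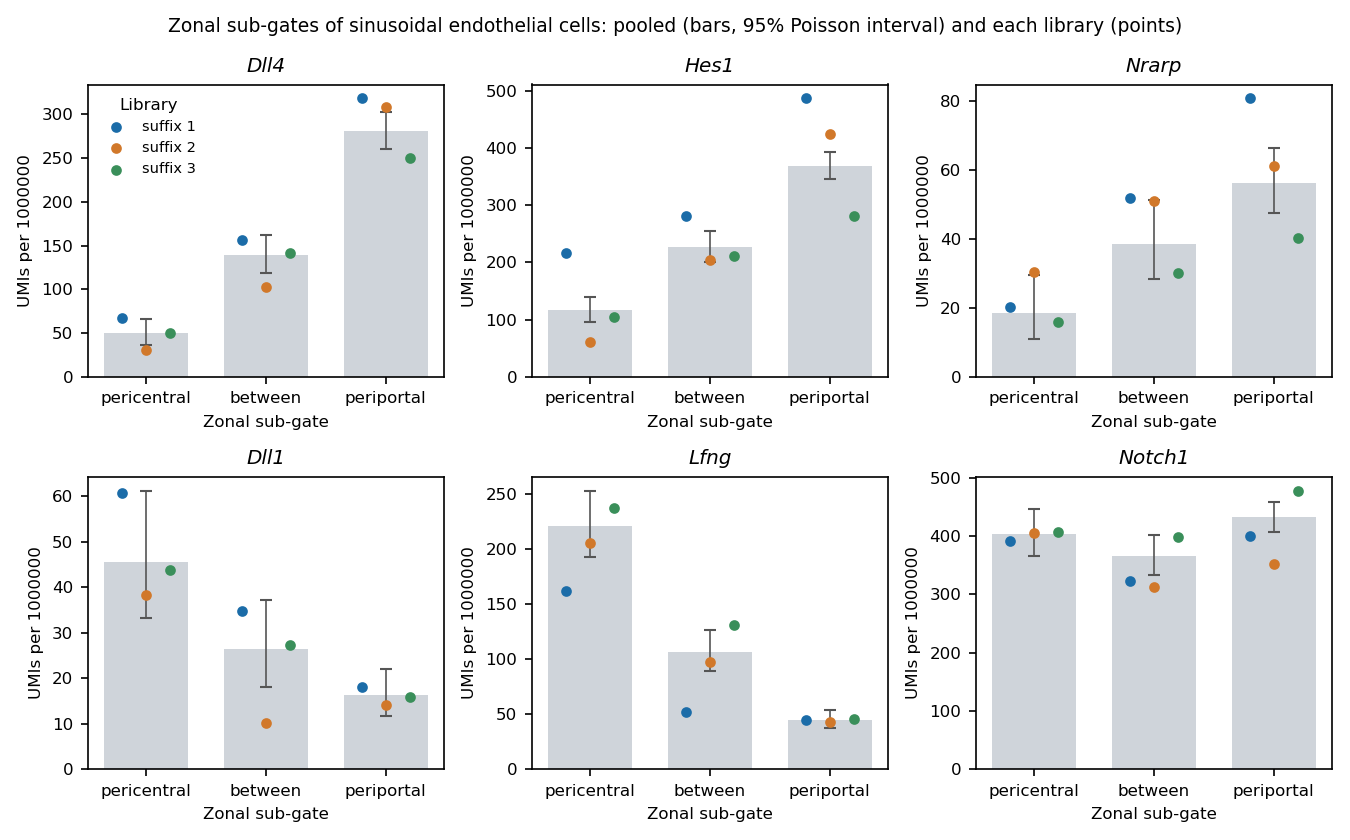
Levels in the pericentral, between and periportal sub-gates of sinusoidal endothelial cells, in UMIs per 1000000 on linear axes from 0. The between group holds the cells that met neither of the other sub-gates. Bars are the libraries pooled with the 95% Poisson interval and points are single libraries. Dll4, Hes1 and Nrarp are lowest in pericentral and highest in periportal cells, and Dll1 and Lfng the reverse. Notch1 runs from 366 in the between group to 433 in periportal cells.

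In the regulators of the pathway, 3 genes were called along the same axis: Lfng, Nrarp and Dtx3. Of all 10324 genes read, 2.11% were called pericentral and 2.0% periportal. Lfng, a glycosyltransferase that favours the response of Notch to Delta-like ligands, was at 222 CPM in pericentral cells (162, 206 and 238 by library) and at 44.8 CPM in periportal cells (44.9, 42.5 and 45.6). The ratio of 4.94 [3.92 to 6.27] made Lfng the only 1 of 8 genes read for ligand activation and receptor glycosylation to be called. Nrarp, a target gene whose product limits Notch signalling, was at 56.4 CPM in periportal (80.9, 61.3 and 40.3) and at 18.6 CPM in pericentral cells (20.2, 30.5 and 16.0), a 3.02-fold excess [1.84 to 5.25]. Dtx3, of the Deltex family of ubiquitin ligases, was 2.18-fold [1.20 to 4.29] higher in periportal cells. None of the 9 receptor cleavage genes, 7 coactivators and 11 corepressors was called between the zones. At these shares of all genes, lists of that size would hold few calls or none.

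The same lists were read between sinusoidal endothelium and Kupffer cells. For ligand activation and receptor glycosylation, 3 of 8 genes were higher and 0 lower in endothelium, beside 27.8% and 11.9% of all genes read. They were Mib1, the ubiquitin ligase that ligands need for their endocytosis (216 against 87.5 CPM), Pofut1, which adds O-fucose to Notch (43.4 against 21.2), and the fucose-extending Mfng (35.1 against 5.0). Lfng was at 97.2 CPM in endothelium and 120 in Kupffer cells and was not called. Of 9 receptor cleavage genes, Psen2, a catalytic subunit of gamma-secretase, was 5.28-fold higher in endothelium, and the protease Adam17 2.48-fold higher in Kupffer cells. Adam10, the protease of ligand-driven cleavage, was at 207 CPM in Kupffer cells, its highest gate. It was at 183 CPM in endothelium and was not called (ratio of endothelium to Kupffer 0.881 [0.745 to 1.05]). Psenen, a gamma-secretase subunit, was at 210.3 CPM in nonclassical monocytes, its highest gate.

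Of 7 coactivators, Maml1, Maml3 and Kat2b were higher in endothelium (2.99-fold, 4.78-fold and 3.71-fold) and none lower. The histone acetyltransferases Crebbp and Ep300 had their highest levels there too, at 219 and 152 CPM, without a call. Of 11 corepressors, 5 were higher and 1 lower, again beside 27.8% and 11.9% of all genes. Tle1, of the Groucho family that Hes proteins recruit, was at 248 CPM in endothelium and 13.7 in Kupffer cells (18.1-fold [10.1 to 36.3]), whereas its relative Tle4 was 2.15-fold higher in Kupffer cells. Ncor1, Cir1, Hdac1 and Ctbp2 were 2.66 to 3.87 times higher in endothelium. Tle3 reached 334 CPM and Ncor1 342 CPM in neutrophils, their highest gate.

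Of 8 genes read for receptor turnover and inhibition, 4 were higher in endothelium and 0 lower, beside 27.8% and 11.9% of all genes. Numb, an adaptor that directs Notch to degradation, was at 163 against 16.2 CPM, Aak1, the kinase that acts on Numb, at 89.1 against 21.2, and Dtx3 at 23.8 against 1.25, from 1 Kupffer UMI. Nrarp was at 44.0 CPM against no Kupffer UMI, 11.7-fold higher by its bound, with an exact lower limit of 9.47. It also counts among the targets, of which 3 of 12 could be read: Ccnd1, a cell cycle cyclin, was 3.23-fold higher in endothelium, and Myc 6.71-fold higher in Kupffer cells. The ubiquitin ligase Itch was highest in nonclassical monocytes, at 190 CPM. None of the 6 other receptors and ligands had enough UMIs for this comparison. Among them Notch3, a receptor of mural cells, reached 21.3 CPM in plasmacytoid dendritic cells (26.0, 15.4 and 23.5 by library), and Jag2 6.30 CPM in cDC1. The median log2 ratio of these lists over Kupffer cells ran from -0.18 for receptor cleavage to 2.30 for turnover and inhibition, beside 0.43 over all genes read. In the same comparison, 6 of 13 immediate early genes and 4 of 11 hepatocyte transcripts were higher in Kupffer cells and none in endothelium, beside 11.9% and 27.8% of all genes.

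NK or ILC1 cells were divided by markers into conventional NK (71) and ILC1 (213), the liver-resident innate lymphoid cells. The remaining 79 met neither sub-gate, at a median of 2447 UMIs, and had Rbpj at 167 CPM [123 to 221]. Rbpj was at 183 CPM in ILC1 (183, 207 and 157 by library) and at 27.1 CPM in conventional NK cells (46.9, 24.8 and 11.9 in 14, 46 and 11 cells). The ratio was 6.74 [4.01 to 12.2], and the libraries did not overlap. Dll1 was at 21.4 CPM in ILC1 and 7.23 CPM in conventional NK cells, from 4 UMIs (ratio 2.96 [1.04 to 11.6]). All 4 came from 1 cell under suffix 2, where the ratio was 1.22, and the interval takes UMIs as independent. Notch1 differed by 1.12 times [0.743 to 1.74] and Notch2 by 1.01 times [0.534 to 2.04]. Hes1 was 9.41 times higher in conventional NK cells [3.98 to 25.7], but from 26 and 7 UMIs and not in every library. Of the other targets, the lymphoid factor Gata3 reached its highest level in T cells, at 108 CPM.

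For the 7 members that reached 20 CPM in a gate, the genes with the most similar profile were sought by Pearson's r of log2(CPM + 10) over the 9 gates, among 9146 genes outside the gate markers. These values describe likeness only: the gates share libraries and depth, and Dll4 and Notch4 are each carried mainly by 1 gate. Dll4 was most like Cyp2j6 (0.996), Gipc3 (0.996) and Apbb2 (0.994). Notch4 was most like Apold1 (0.974), Plcb4 (0.972) and Cd99l2 (0.971), and Notch1 like Ubn1 (0.983), Med13 (0.982) and Crebrf (0.976). Dll1 was most like Mr1 (0.972), Gm26870 (0.965) and Pde1c (0.962). Among the members led by blood cells, Notch2 was most like Sem1 (0.950), Myl12b (0.948) and Ncf4 (0.942), Hes1 like Tmem131 (0.940), Akt1 (0.929) and Plod3 (0.924), and Rbpj like Commd8, Gm9844 (0.890 each) and Ccdc102a (0.887). No member was among the 3 genes nearest to another.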

How the data were processed

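The authors deposited UMI counts of all libraries in 1 unnormalised matrix, made with Cell Ranger 3.1.0 per the file headers against mm10 per the submitters' processing notes. From these counts, barcodes with at least 200 genes and at most 20% mitochondrial UMIs were kept (1408 removed), and Scrublet (scanpy 1.11.5, Python 3.11.15), run on each library, removed 23 doublets in all. A cell took a gate with at least 4 UMIs from at least 2 of its markers and at least 3 times any other gate's sum. Sub-gates needed 3 UMIs and 2 times the other sum. UMIs were summed per gate and divided by the gate's total, with exact Poisson or conditional (Clopper-Pearson) intervals at 95%. Ratios were read where both gates together had at least 10 UMIs. A count of 0 was bounded at 3 counts over the pooled gate, which bounds that count only and leaves out error in the other count. The calculation was tested on simulated data. Cells are not replicates, so no test was run.

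The sample sheets hold index names and were not used. Genes were named by a fixed rule: the members in every gate of at least 50 cells, for each pathway list the 2 genes with the highest level and every gene called between sinusoidal endothelium and Kupffer cells, and the 3 genes most like each member. Exceptions are marked. The members and lists were chosen with earlier results of these data known. Alternatives were another gate strictness, cell filter, doublet handling, scaling (edgeR 4.0.16 TMM), weighting, thinning, and leaving out each library. Positions come from GENCODE release M21 (GRCm38).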

Additional observations from a re-analysis of the deposited data

Results flagged for a closer look

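The filters removed 157 barcodes that otherwise met the sinusoidal endothelial gate, and these barcodes enter no comparison above. Signal for 6 members lay above the 13.6 UMIs per 1000000 that a count of 0 would allow there. Per 1000000 non-mitochondrial UMIs, Notch1 was at 441 in the removed and 445 in the kept cells. Rbpj was at 68.1 against 61.9 and Jag1 at 22.7 against 20.8, from 5 UMIs. The ligand Dll4 was at 114 against 214, a ratio of 0.531 [0.342 to 0.788]. Hes1 was at 191 against 304.5, a ratio of 0.626 [0.449 to 0.851], whereas the ratio of Notch1 was 0.991 [0.799 to 1.22]. Notch4 was at 68.1 against 95.7, with an interval that held 1. No UMI of Notch2 or Dll1 was counted in the removed barcodes.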

How the results depend on the processing

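No paired analysis was possible because each treatment has 1 library and no library can be tied to its treatment. Of 844 recomputed ratios (54 ratios under up to 16 settings), 789 stayed within their counting interval, 53 moved beyond it, and 2 of ratios that had been called changed direction: Jag1 in sinusoidal endothelium over NK or ILC1 cells, at 0.859 with cells thinned to 1000 UMIs and 0.988 with equal weight per cell. Among ratios not called, 22 more values, of 11 ratios, crossed 1. All these numbers leave out values with a count of 0 in either gate. Bounds of some called results also passed 1 with thinned cells, and those calls ended. Among them were Jag1 in sinusoidal endothelium over Kupffer cells (0.749) and Hey1 over NK or ILC1 (0.624) and plasmacytoid dendritic cells (0.609). Hey1 in pericentral over periportal cells (1.84) was another. Thinning left 0 members called pericentral over periportal and 4 called in sinusoidal endothelium over plasmacytoid dendritic cells, where fewer UMIs enter. Equal weight per library gave 2 members higher in Kupffer cells than in sinusoidal endothelium, Hey1 beside Notch2. The cause was not tested. The Jag1 ratio over NK or ILC1 cells also missed 2 with a reduced denominator (1.86) and equal weight per library (1.97). Depth limits Hey1 most, with 17 UMIs in sinusoidal endothelium and 6 in Kupffer cells.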

Other observations

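The vascular endothelial gate held 16 cells, too few for the comparisons above, and is given as values chosen after they were seen. Notch1 was at 626 CPM [478 to 806], with 585, 511 and 789.8 by library, Jag1 at 292 [194 to 422], Dll4 at 115 [57.3 to 205], Dll1 at 104 [50.02 to 192] and Hey1 at 31.3 [6.45 to 91.4], from 3 UMIs. Jag1 UMIs were seen in 62.5% of these cells, next to 6.91% of sinusoidal endothelial cells, at medians of 5432 and 5884.5 UMIs. Notch4 was at 41.7 CPM [11.4 to 107] from 4 UMIs and Hes1 at 104 CPM [50.02 to 192].

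The 1045 ungated cells had 152 CPM of Rbpj, 92.5 CPM of Hes1, 79.8 CPM of Notch1, 58.9 CPM of Notch2, 17.9 CPM of Jag1, 12.7 CPM of Dll4, 8.76 CPM of Dll1, 8.39 CPM of Notch4 and 1.68 CPM of Hey1.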
